A study of Mus musculus with 24 samples.

Results

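Type I interferon response genes were followed across 24 mouse tumours as a fixed list of 33 genes, of which 31 had a row in the count table of 27368 genes. Mx1 and Mx2 were not analysed here. All 31 passed the filter on low counts, which kept 16560 genes in all. Female C3H mice aged 6 to 8 weeks carried tumours under the flank skin, each grown from about 1000000 SCC7 cells, a mouse squamous cell carcinoma line. The NC line held an empty vector and the OE line overexpressed the microRNA miR-21-5p. The microRNA itself was not analysed here, so the overexpression has no check in these data. Treatment began once tumours reached about 300 cubic millimetres, with sham handling, radiation to the tumour alone (IR, 8 Gy a day on 3 days), olaparib (50 mg/kg into the abdomen 2 h before each irradiation, with a further dose the day after the last) or both, in 8 groups of 3 tumours. Olaparib inhibits PARP enzymes, which act at DNA breaks. Whole tumours were sequenced, with RNA of the cancer cells and of the blood vessels, stroma and immune cells of the host. Fewer cells of a type and less RNA per cell cannot be told apart in such samples.

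The labels of the samples conflict, and every comparison rests on which of them is read. The letters of the coded identifier and the written treatment match for 5 tumours and conflict for 19. The written group was read from a field named batch, which holds group letters such as ES. The groups below are those of the coded identifier, which was preferred with results of these data known, among them higher p53 target genes in tumours coded as irradiated. The radiation p-values are therefore not independent of the choice of reading. Values under the written labels stand beside the main results. Tumours are named by that identifier, of which the figures print the number alone. Libraries held 37099055 to 40004502 counted reads.

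Type I interferons are secreted when cells sense viral or misplaced nucleic acid, including DNA that leaks from damaged nuclei. They bind a receptor shared by neighbouring cells, and the kinases JAK1 and TYK2 then activate a factor that contains STAT2 and IRF9 and binds the interferon-stimulated response element (ISRE) of its target genes. Those targets encode antiviral proteins, the sensors themselves, the amplifier IRF7 and the brake USP18. In irradiated tumours the pathway is known as a link between DNA damage and immune attack.

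The ISRE is shown here because it is what the list is known to share at the DNA level. RefSeq promoter windows (build GRCm38.p6, 250 bases before to 50 after a start) were found for 23 of the 31 members. The ISRE core GAAANNGAA, searched on both strands, lay in the window of 12 of them (52.2%), against 9.32% of the 20538 genes of the table with a window. The gamma-activated sequence (GAS, letters TTCNNNGAA, which can overlap an ISRE match) lay in 5 of the 23 (21.7%), against 9.04% of the same genes. Ifih1, Rsad2 and Trim25 also had upstream matches, which are not printed. The stretches below surround the ISRE matches upstream of the window's start in 6 members. They are written from 5′ to 3′ on the strand of the gene, with the matches to either strand in capitals.
Isg15: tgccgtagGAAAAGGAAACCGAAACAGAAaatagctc
Oas3: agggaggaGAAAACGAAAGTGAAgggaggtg
Bst2: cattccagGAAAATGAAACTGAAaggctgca
Stat2: accctggtTTCAGTTTCctttccct
Ifit1: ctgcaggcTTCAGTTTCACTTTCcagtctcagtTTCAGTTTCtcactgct
Ifit3: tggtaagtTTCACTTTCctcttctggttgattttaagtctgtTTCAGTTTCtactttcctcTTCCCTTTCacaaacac

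These stretches lie at chr4:156200868-156200904 on the minus strand (Isg15), chr5:120777712-120777742 on the minus strand (Oas3), chr8:71537580-71537610 on the minus strand (Bst2), chr10:128270269-128270293 on the plus strand (Stat2), chr19:34640772-34640821 on the plus strand (Ifit1) and chr19:34583366-34583443 on the plus strand (Ifit3). Matches overlap in tandem in Isg15, Oas3, Bst2 and Ifit1 and stand apart in Ifit3. The Ifit3 stretch lies inside the annotated span of the gene, which begins at chr19:34583119, and so is upstream of a later start only. A match is a string of letters and not a measured binding site. Of the 12 members with a match 6 were called higher after radiation, as were 4 of the 11 with a window and no match. Of the 8 members without a window 6 were called higher. Among all tested genes 21.7% were called higher.

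Several members are neighbours in the genome. Oas2 and Oas3 lie 3212 bases apart on chromosome 5 and Ifit2 and Ifit3 lie 6585 bases apart on chromosome 19. Rsad2 and Cmpk2 lie 12665 bases apart on chromosome 12, and the ends of Parp9 and Dtx3l overlap on chromosome 16. Reads of Parp9 and Dtx3l, of Ifit1 and Ifit1bl1, and of the near-identical copies in the Ifit3, Oas and Ifi200 families could not be assigned with certainty, since the strand and multi-mapping settings are not given in the sources used here.

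Every member was expressed in these tumours. Per kilobase of exon, Bst2, which encodes tetherin, a protein that holds budding virus at the cell surface, had the highest median over the 24 tumours, at 292 RPKM, reads scaled by exon length and library size. Isg15, the ubiquitin-like modifier, followed at 76.0 RPKM, Ifit3 at 59.6 RPKM and Irf7 at 57.3 RPKM. Cmpk2 was at 8.61 RPKM and Herc6 lowest at 6.36 RPKM.

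Levels below are counts per 1000000 reads after TMM scaling (CPM). The groups at the extremes were NC IR+olaparib, which held the highest group mean of the log2 level for 29 of 31 members, and OE sham, which held the lowest for 27. The mean over members of the log2 level, with each gene set to its mean over the 24 tumours, ran from 0.45 to 0.80 in the tumours of NC IR+olaparib and from -1.16 to -0.37 in those of OE sham. OE IR tumours lay close together, from 0.07 to 0.21, and OE IR+olaparib tumours were spread widest, from -0.79 to 0.74.

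**Figure D1:**
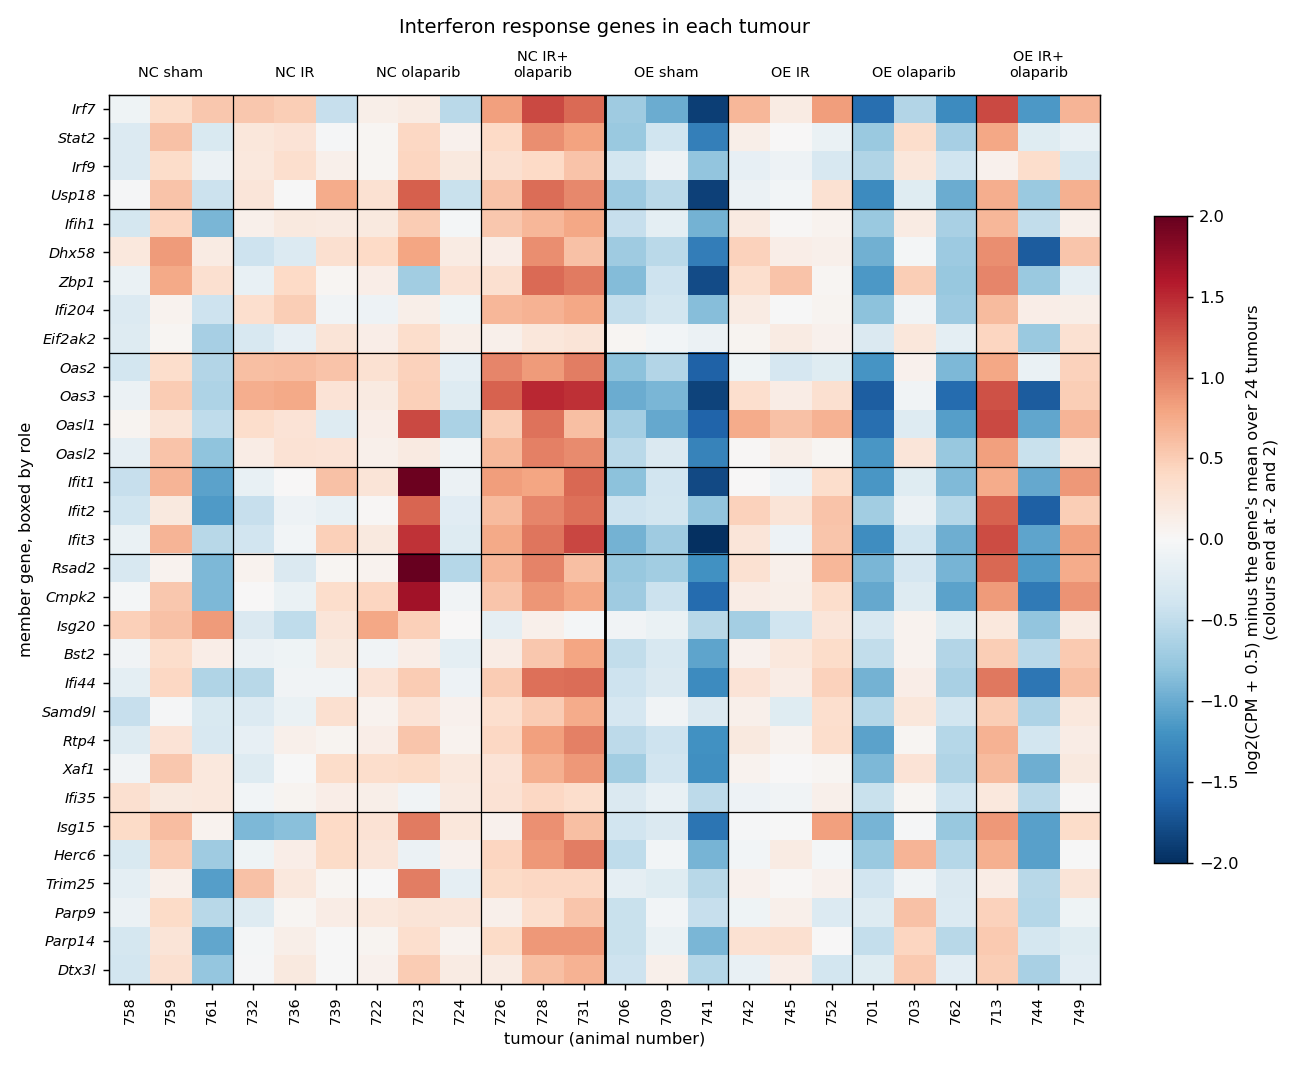
Each row is a member and each column a tumour, and colour gives log2(CPM + 0.5) minus the mean of that gene over all 24 tumours, with colours ending at -2 and 2. The NC IR+olaparib columns are red for nearly all members, OE sham tumour ES-741 and OE IR+olaparib tumour EIO-744 are blue for nearly all, and NC olaparib tumour O-723 is darkest red in Ifit1 and Rsad2.

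Radiation averaged over both lines and both olaparib settings compared 12 irradiated with 12 unirradiated tumours, to ask whether the response was higher after irradiation. Of the 31 members 16 rose and none fell at an adjusted p below 0.05 (edgeR quasi-likelihood test, adjusted over all 16560 genes). Among all tested genes 21.7% were called higher and 17.5% lower. The median log2 fold change was 0.48 over the members and 0.04 over all tested genes, and 30 of 31 members lay above 0. The ranges of irradiated and unirradiated tumours overlapped for every member.

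Counts by role, here and below, stand against the 21.7% of all tested genes called higher. Of the 4 signalling and regulatory genes 3 rose. Irf7, the transcription factor that amplifies interferon production, was at 86.6 CPM in the lowest, 306 CPM in the median and 481 CPM in the highest irradiated tumour. Unirradiated tumours had 51.7, 131 and 281 CPM for the same gene. Its level was thus higher in most irradiated tumours, but EIO-744, an OE IR+olaparib tumour, lay at the bottom with the unirradiated ones. The log2 fold change of Irf7 was 1.12 ± 0.22 (SE), with an adjusted p of 0.00121. Stat2, a subunit of the factor that binds the ISRE, rose by 0.48 ± 0.16 (adjusted p = 0.0264), from 107 ± 40.6 to 147 ± 43.5 CPM (SD, n = 12 each). Usp18, which removes ISG15 from proteins and silences the receptor, rose by 0.71 ± 0.22 (adjusted p = 0.0178). Irf9, the DNA-binding partner of STAT2, spanned 41.8 to 79.4 CPM after radiation against 30.9 to 72.3 CPM without it and did not pass (0.22 ± 0.11, adjusted p = 0.129).

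Among the sensors of nucleic acid, Ifi204 gave the smallest p of all members. This gene encodes a nuclear and cytosolic DNA sensor of the mouse Ifi200 family. Irradiated tumours had 113, 141 and 203 CPM as lowest, median and highest, and unirradiated tumours 65.4, 95.0 and 129 CPM. The median irradiated tumour thus lay above every unirradiated one. The log2 fold change of Ifi204 was 0.66 ± 0.10, with an adjusted p of 0.000159. Ifih1, which encodes the RNA sensor MDA5, rose by 0.47 ± 0.16 (adjusted p = 0.0244), and Zbp1, a sensor of left-handed nucleic acid that can trigger necroptosis, by 0.60 ± 0.23 (adjusted p = 0.0417). Dhx58, which encodes the helicase LGP2, and Eif2ak2, which encodes the kinase PKR that stops translation, did not pass, at log2 fold changes of 0.38 and 0.12.

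All 4 OAS genes rose, as did 2 of 3 IFIT genes. OAS enzymes make the short adenylate chains that switch on the RNA-cutting enzyme RNase L. Oas3 was at 20.4, 101 and 189 CPM (lowest, median, highest) in irradiated and 18.0, 48.9 and 94.5 CPM in unirradiated tumours, and its log2 fold change was the highest of all members, at 1.17 ± 0.26 (adjusted p = 0.00228). Oas2 was at 32.5, 62.0 and 84.5 CPM against 13.1, 29.6 and 56.8 CPM and rose by 0.80 ± 0.16 (adjusted p = 0.00123). Oasl1 and Oasl2, relatives that bind RNA, rose by 0.92 ± 0.25 (adjusted p = 0.00763) and 0.63 ± 0.18 (adjusted p = 0.0107). IFIT proteins bind foreign RNA ends and block their translation. Ifit3 rose by 0.82 ± 0.26 (adjusted p = 0.0177) and Ifit2 by 0.60 ± 0.23 (adjusted p = 0.0494). Ifit1 had a like value of 0.59 ± 0.27 and did not pass (adjusted p = 0.0924). Its irradiated tumours held 41.3, 118 and 188 CPM and its unirradiated ones 23.9, 62.9 and 331 CPM. The highest Ifit1 level of the series was in an unirradiated tumour, O-723, of the NC olaparib group, and without it Ifit1 stood at 0.81 with an adjusted p of 0.0156. That was the highest value of 24 fits that left out 1 tumour. The lowest was 0.49, without NC sham tumour S-761, and Ifit1 passed in 3 of the 24.

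Other antiviral effectors divided, with 3 of 9 higher. Bst2 was at 171, 288 and 433 CPM in irradiated and 120, 228 and 318 CPM in unirradiated tumours, and rose by 0.44 ± 0.13 (adjusted p = 0.0111). Rtp4, a receptor chaperone with antiviral activity, rose by 0.54 ± 0.14 (adjusted p = 0.00699) and the interferon-induced gene Ifi44 by 0.56 ± 0.22 (adjusted p = 0.0477). Rsad2, which encodes viperin, an enzyme that makes a chain-ending nucleotide, and its neighbour Cmpk2, a nucleotide kinase of mitochondria, were at 0.55 each and did not pass. Neither did Samd9l, which encodes an antiviral brake on translation, at 0.31 ± 0.12 (adjusted p = 0.0517), the death-promoting gene Xaf1 at 0.33 or Ifi35 at 0.14. Isg20, an RNA exonuclease, was the single member below 0, at -0.30 ± 0.14 (adjusted p = 0.0986), and spanned 11.9 to 24.9 CPM after radiation against 14.1 to 38.1 CPM without it.

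Of the ISG15, ubiquitin and ADP-ribose enzymes 1 of 6 rose, Parp14, an ADP-ribosyl transferase, by 0.43 ± 0.15 (adjusted p = 0.0332). That share lies below the 21.7% of all tested genes called higher, so it is not read as a result about this role. Isg15 itself was at 25.3, 64.1 and 103 CPM in irradiated and 19.3, 55.3 and 112 CPM in unirradiated tumours, ranges that nearly coincide, and its log2 fold change was 0.26 ± 0.23 (adjusted p = 0.375). Parp9 and Dtx3l, which encode partners in one ADP-ribosylation and ubiquitin complex, were at 0.07 and 0.14. Herc6, the ligase that attaches ISG15 in mice, was at 0.39 ± 0.20 and Trim25, a ubiquitin ligase for the RNA sensor RIG-I, at 0.32 ± 0.15.

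Usp18 illustrates the spread among tumours of the called genes. Its 12 irradiated tumours ranged from 20.0 to 73.8 CPM, while its 12 unirradiated ones ranged from 8.88 CPM in OE sham tumour ES-741 to 78.3 CPM in NC olaparib tumour O-723. Of the 16 calls 11 held in each of 24 fits that left out 1 tumour, among them Irf7, Usp18, Ifih1, Ifi204, Bst2 and the 4 OAS genes. Stat2 lost its call in 5 of those fits, Parp14 in 14, Zbp1 in 15, Ifi44 in 19 and Ifit2 in 21. Under the written labels no member was called (0 of 31, with 8 at an unadjusted p below 0.05), as 0.00604% of all tested genes were, and the median log2 fold change of the members was 0.19. Of the 12 tumours written as irradiated 8 are also coded as irradiated. Sample quality weights in limma voom gave 28 members higher and 1 lower, in a fit that called 55.0% of all genes in either direction.

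Each stratum of 3 against 3 tumours is given in turn, and the plot by stratum shows the members side by side. In NC tumours without olaparib the median member stood at 0.18 and none of 31 was called, against 10.0% of all tested genes. Irf7 was at 181, 249 and 281 CPM in the NC sham tumours and at 140, 270 and 280 CPM in the NC IR tumours, so the groups overlapped throughout (-0.04 ± 0.44, adjusted p = 0.958). Oas2 was the 1 member with every NC IR tumour above every NC sham tumour, a pattern that 14.4% of all tested genes had. For 2 members, Isg20 and Ifi35, every NC IR tumour lay below every NC sham tumour. The share of all genes with that downward pattern was not computed. At an unadjusted p below 0.05 in this stratum stood 4 members, with Oas2, Ifi204 and Trim25 above 0 and Isg20 below. Of all tested genes 4903 of 16560 stood at that level, a larger share than among the members. The members' median in this stratum was -0.04 without NC sham tumour S-761, 0.03 without NC IR tumour I-739 and 0.44 without NC sham tumour S-759.

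The OE tumours without olaparib are the second stratum. Irf7 was at 51.7, 96.7 and 117 CPM in the OE sham tumours and at 216, 306 and 342 CPM in the OE IR tumours, and the groups did not overlap. Its log2 fold change was 1.70 ± 0.45 (adjusted p = 0.0996). Every OE IR tumour lay above every OE sham tumour for 26 of 31 members, against 17.3% of all tested genes. All 31 lay above 0, with a median of 0.79, and none was called by edgeR, where 0.248% of all genes were. An unadjusted p below 0.05 was found for 15 members and for 2447 of 16560 tested genes. The DESeq2 test called 5 members and 3.96% of all genes, and a fit on the 6 tumours alone called 14 members and 14.4% of all genes. A fit without OE IR+olaparib tumour EIO-744, which is in neither group, called 4 members and 2.35% of all genes. Leaving OE sham tumour ES-741 out put the members' median at 0.57, the lowest of those 24 fits.

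Under olaparib, the NC tumours had a member median of 0.39 with no call (1.46% of all genes) and 6 members at an unadjusted p below 0.05. Of all 16560 tested genes 3655 stood at that level, a slightly larger share. Irf7 was at 133, 209 and 216 CPM in NC olaparib and 341, 423 and 480 CPM in NC IR+olaparib tumours, which did not overlap. For 13 members every NC IR+olaparib tumour lay above every NC olaparib tumour, against 17.7% of all tested genes. Of the members 26 lay above 0 and 5 below, namely Rsad2, Isg20, Cmpk2, Ifit1 and Eif2ak2, none of them called. Rsad2 was at -0.59 ± 0.59, with tumour O-723 at 264 CPM of Rsad2 and its 2 companions at 29.5 and 46.6 CPM.

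In OE tumours under olaparib 2 of 31 members rose, a share near the 6.78% of all genes called in either direction. Ifi204 was at 67.2, 71.5 and 113 CPM in OE olaparib and 128, 130 and 184 CPM in OE IR+olaparib tumours, which did not overlap, and rose by 0.82 ± 0.20 (adjusted p = 0.0318). It was the 1 member whose groups were apart here, a pattern of 11.6% of all genes. Irf7 was at 67.0, 79.8 and 129 CPM against 86.6, 307 and 481 CPM, with the lowest OE IR+olaparib tumour inside the range of the others, and rose by 1.67 ± 0.45 (adjusted p = 0.0376). The count of 2 fell to 0 without OE olaparib tumours EO-701 or EO-762 or OE IR+olaparib tumour EIO-713, and to 1 without OE olaparib tumour EO-703. It was also 0 in a fit on these 6 tumours alone and under the written labels. The median member was at 0.70, from 0.34 without EIO-713 to 1.05 without EO-703. An unadjusted p below 0.05 was found for 11 members and for 4681 of 16560 tested genes.

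**Figure D2:**
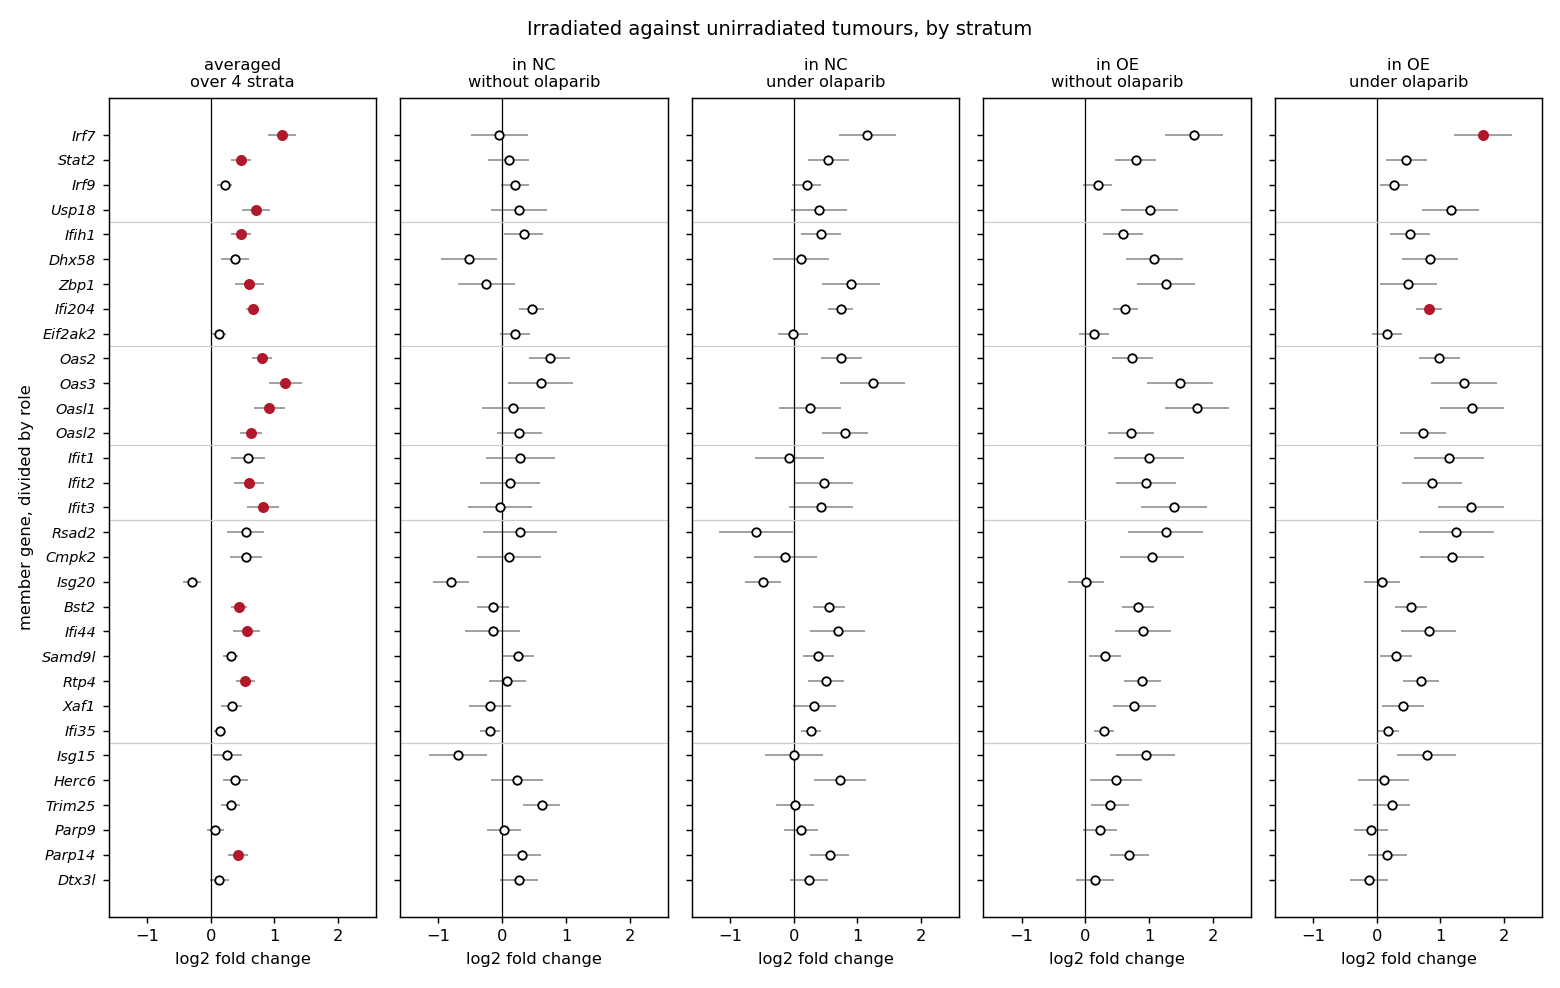
Points give the log2 fold change of irradiated over unirradiated tumours for each member, averaged over 4 strata (left) and in each stratum of 3 against 3 tumours, lines give the SE, and filled red points passed an adjusted p of 0.05. Points for NC without olaparib scatter about 0, while all 31 lie above 0 in OE without olaparib, and no more than 2 pass in any single stratum.

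Whether radiation acted differently in OE and NC was tested as an interaction. The difference of the radiation effects, OE minus NC, had a median of 0.50 over the members and lay above 0 for 26 of 31. None was called, and 0.00604% of all tested genes were. An unadjusted p below 0.05 was found for 8 members and for 1882 of 16560 tested genes. The values with the smallest p were those of Oasl1 at 1.41 ± 0.49 (adjusted p = 0.297), Dhx58 at 1.17 ± 0.44 (adjusted p = 0.32), Isg15 at 1.21 ± 0.46 (adjusted p = 0.325) and Irf7 at 1.13 ± 0.44 (adjusted p = 0.342). The contrast between strata is thus not shown to differ between the lines for any member. Voom with quality weights called 10 of 31 and 17.4% of all genes, and the fit without tumour EIO-744 called 3 and 3.51%. The interaction of radiation and olaparib had a member median of 0.11, with no call (0% of all genes). No member was at an unadjusted p below 0.05, against 588 of 16560 tested genes.

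OE and NC tumours were compared to ask how the microRNA bears on the response, and 1 of 31 members, Oas2, was lower in OE. Averaged over the 4 treatments, the median log2 fold change of the members was -0.42 against -0.01 over all genes, with 30 of 31 below 0. Oas2 passed, against 0.453% of all tested genes. It was at 13.1, 33.6 and 71.3 CPM (lowest, median, highest) in 12 OE tumours and 27.2, 59.1 and 84.5 CPM in 12 NC tumours, with ranges that overlapped, and fell by 0.74 on the log2 scale (SE 0.16, adjusted p = 0.0491). Ifi35, a protein released as an alarm signal, followed at -0.34 ± 0.08 (adjusted p = 0.0562), then Irf9 at -0.41 ± 0.11 (adjusted p = 0.0942). At an unadjusted p below 0.05 stood 20 members and 2565 of 16560 tested genes. Eif2ak2 was at 0.00 ± 0.12. The call of Oas2 is not firm: the count of called members was 0 in 18 of the 24 fits without 1 tumour, 0 without the filter on low counts and 0 under the written labels, where the median was 0.00, and 7 in DESeq2 and 14 with quality weights, where 3.86% and 16.5% of all genes were called.

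The members' medians were lowest in the unirradiated groups. In the sham groups the median member was at -0.63 and in the olaparib groups at -0.62, each with no call (0% of all genes in both). Markers differed between the sham groups too. Squamous markers summed to 1264 to 1453 CPM in NC sham and 767 to 917 CPM in OE sham tumours. Natural killer cell markers summed to 181 to 255 CPM against 65.0 to 161 CPM. Markers common to leukocytes summed to 1130 to 2102 CPM against 920 to 1061 CPM. These lists were lower in OE sham without overlap. Other lists were higher in OE sham without overlap, namely endothelial (173 to 250 CPM against 256 to 286 CPM), skeletal muscle, adipocyte and p53 target genes. Interferon gamma response genes had medians of 3000 and 1811 CPM, with ranges that overlapped. The part of these markers was not tested. Averaged over treatments 1 of 8 tested natural killer markers was lower in OE and none of the 12 squamous ones passed. In that comparison 0.453% of all tested genes were called in either direction. Every OE sham tumour lay below every NC sham tumour for 14 members, among them Irf7, Stat2, Usp18, Zbp1, Bst2 and Isg15, against 14.2% of all genes. For the olaparib groups this held for 7 members, against 7.23%. Isg15, for example, was at 19.3, 41.7 and 44.5 CPM in OE sham and 57.1, 70.8 and 83.9 CPM in NC sham tumours (-1.01 ± 0.46, adjusted p = 0.378). Sham tumours had 15 members at an unadjusted p below 0.05 (2065 of 16560 tested genes) and olaparib tumours 14 (590 of 16560). In the IR groups the median was -0.02, with none called (0.0845% of all genes) and 1 member at that level, against 3092 of 16560 genes. In the IR+olaparib groups it was -0.49, with none called (0% of all genes) and 2 at that level, against 1669 of 16560 genes. Without tumour EIO-744 the last of these medians was -0.15 and without EIO-713 it was -0.74. The sham median was -0.35 without NC tumour S-759, and the olaparib median -1.01 without OE tumour EO-703. Every OE IR tumour lay below every NC IR tumour for 3 members and above for 4. Every OE IR+olaparib tumour lay below every NC IR+olaparib tumour for 4 members and above for 0. The shares of all genes with these patterns were not computed.

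**Figure D3:**
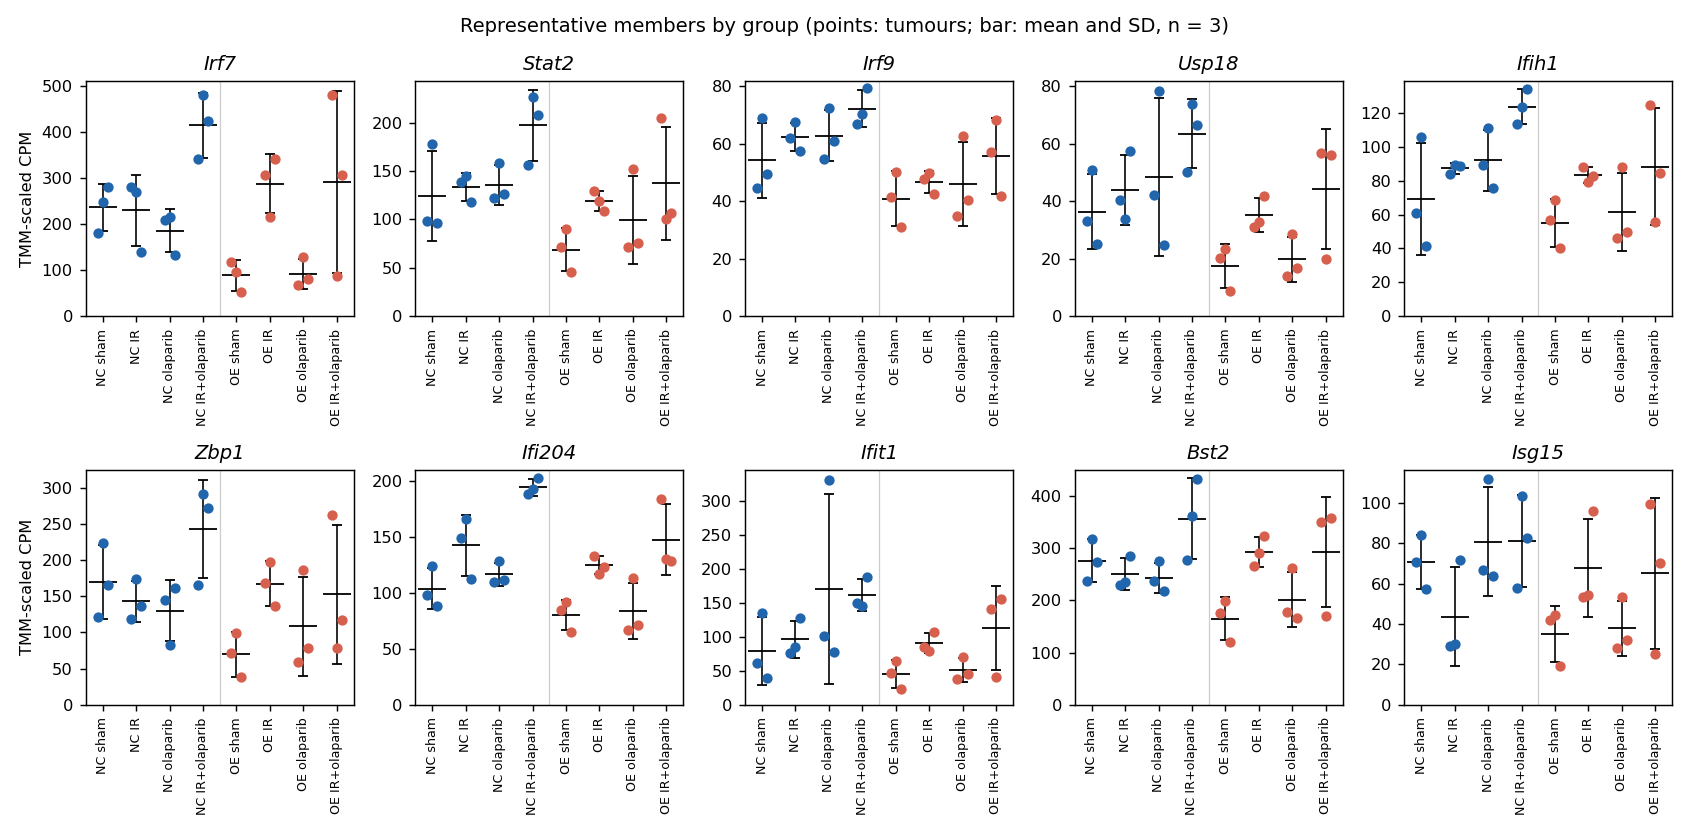
Levels of 10 members in TMM-scaled CPM are shown for each tumour (points, blue for NC and red for OE) with the mean and SD of each group of 3. OE sham holds the lowest mean in all 10 panels, and NC IR+olaparib holds the highest mean in all but Ifit1, where NC olaparib with tumour O-723 at 331 CPM is higher.

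Olaparib, averaged over both lines with and without radiation, left all 31 members above 0, with a median of 0.30 and no call. An unadjusted p below 0.05 was found for 10 members and for 1270 of 16560 tested genes. No gene of the table was called (0%) in this comparison or in any of the 4 olaparib comparisons within a stratum. Oas2 had the smallest p, at 0.44 ± 0.16 (adjusted p = 0.64), and Rsad2 the highest value, at 0.71 ± 0.29 (adjusted p = 0.64). The member medians were 0.32 in NC sham, 0.19 in OE sham, 0.61 in NC IR and 0.07 in OE IR tumours. Without tumour O-723 the NC sham value was 0.09, and the OE IR value was -0.23 without tumour EIO-713 and 0.37 without tumour EIO-744. In the irradiated NC tumours all 31 members lay above 0 and 6 had an unadjusted p below 0.05, against 625 of 16560 tested genes. Each NC IR+olaparib tumour lay above each NC IR tumour for 19 members, against 3.82% of all tested genes. Ifi44 was at 81.6, 114 and 115 CPM in NC IR and 172, 260 and 263 CPM in NC IR+olaparib tumours (1.16 ± 0.44, adjusted p = 1). The interaction of olaparib and cell line called no member and 0% of all genes, with a median of -0.22. Under the written labels the same interaction called 17 members and 14.8% of all tested genes. Of the 12 tumours on the positive side of that written contrast 10 are coded as irradiated, and of the 12 on its negative side 2 are.

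The 5 tumours on which the labels agree gave a second view of radiation, with 3 irradiated (NC IR I-732 and I-736, OE IR+olaparib EIO-713) against 2 unirradiated (OE sham ES-706, OE olaparib EO-762). Both unirradiated tumours are OE, so radiation cannot be told apart from cell line for the NC pair. Of the 31 members 6 rose, against 5.83% of 15478 tested genes called. They were Irf7 at 1.80, Stat2 at 1.15, Irf9 at 0.60, Ifi204 at 1.10, Oas2 at 1.55 and Oas3 at 2.20 on the log2 scale, with adjusted p from 0.0243 to 0.0489. Each irradiated tumour lay above both unirradiated ones for 26 members, against 27.4% of all genes.

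Genes around the members were read from lists of the same pathway. The ligands themselves were near the limit of detection. Ifnb1 had 81 reads in all 24 tumours together, with none in 8 of them, which allows up to 3 reads in each, and the listed Ifna genes and Ifne had 1 read each in total. Ifng, the type II interferon gene, was at 2.58 ± 1.90 CPM in irradiated and 2.41 ± 2.20 CPM in unirradiated tumours and did not pass (adjusted p = 0.844). Of 10 tested receptor and JAK-STAT genes Il10rb, a receptor chain of interferon lambda and interleukin-10, rose by 0.58 and Tyk2 by 0.32, while Ifnar1, the receptor chain of type I interferon, was at -0.05 (adjusted p = 0.588). Among all tested genes 21.7% were called higher, so these calls are not read as a result about the list.

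Sensors and adaptors outside the list had 6 of 16 higher and 1 lower with radiation. The kinase gene Ikbke rose by 0.91 ± 0.14 (adjusted p = 0.000182) and the adaptor Myd88 by 0.44 ± 0.07 (adjusted p = 0.00021), whereas Cgas, which encodes the DNA sensor that makes cyclic GMP-AMP, fell by 0.63 on the log2 scale (adjusted p = 0.00752). Of 10 inhibitors of sensing 2 rose and 3 fell, 2 of 10 being near the 21.7% of all genes called higher. Samhd1, which degrades nucleotides, rose by 0.73 and Socs3, a brake on cytokine receptors, by 0.95, and the 3 subunit genes of RNase H2 fell. Among 49 other interferon-stimulated genes 29 rose and 1 fell, with a median of 0.44, close to that of the members. The smallest p belonged to Lgals3bp (0.85), Ddx60 (1.02), Ifi209 (1.13) and Slfn1, which went from 26.4 ± 11.2 to 74.1 ± 32.9 CPM. Of 19 tested interferon gamma response genes 3 rose, namely Ido1, Cd274 and Gbp5, a share below that of all genes.

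Markers of cell types were compared between irradiated and unirradiated tumours as well. Among all tested genes 21.7% were called higher and 17.5% lower. Macrophage and monocyte markers, a source that expresses many members, had 9 of 15 higher, and their summed level was 3132, 14169 and 20115 CPM (lowest, median, highest) in irradiated and 5635, 7261 and 14771 CPM in unirradiated tumours. Neutrophil markers had 7 of 9 tested higher, with sums of 147, 203 and 710 CPM against 113, 175 and 250 CPM. The value of 710 CPM was that of EIO-744, and the next irradiated tumour had 307 CPM. T cell markers had 6 of 11 lower, with 28.9 to 191 CPM against 53.3 to 383 CPM. Plasmacytoid dendritic cells are known as strong producers of interferon. Of their 10 markers 5 were lower and 1 higher, with Siglech at 0.174 CPM in irradiated and 2.71 CPM in unirradiated tumours, while the list's sum had medians of 209 and 205 CPM. Proliferation markers were lower in 9 of 10 and p53 targets higher in 10 of 10. Higher p53 target genes were known when the coded identifier was preferred, so their count is no check of that reading. Squamous markers had 3 of 12 higher, near the share of all genes, and 1 lower. Their sums were 239, 506 and 1206 CPM after radiation against 421, 935 and 1453 CPM. Markers common to leukocytes had 2 of 6 higher and 1 lower, with sums of 799, 1928 and 2297 CPM against 920, 1113 and 2102 CPM. The part of these markers in the members' levels was not tested.

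Of the 24 tumours 7 lay above the median in both the members' mean level and the macrophage sum and 7 below it in both, while 5 were above in the first alone and 5 in the second alone. All 3 NC IR+olaparib tumours and EIO-713 were high in both, and all 3 OE sham tumours, EO-701 and EO-762 were low in both. NC IR tumour I-739 had the lowest macrophage sum of all and a member mean of 0.18, and NC IR tumours I-732 and I-736 had the highest sums, at 19864 and 20115 CPM, with member means of -0.02 and 0.07. NC sham tumour S-761 had a sum of 14771 CPM and a member mean of -0.41. OE IR+olaparib tumour EIO-744, in which fibroblast markers summed to 136762 CPM against 4734 to 11400 CPM in the others, had the lowest value of all tumours for 9 members. Without I-739, EIO-744 and S-761 together, 20 members rose with radiation in the averaged comparison, where 46.7% of all genes were called in either direction, and the 16 called in the full set were among them.

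**Figure D4:**
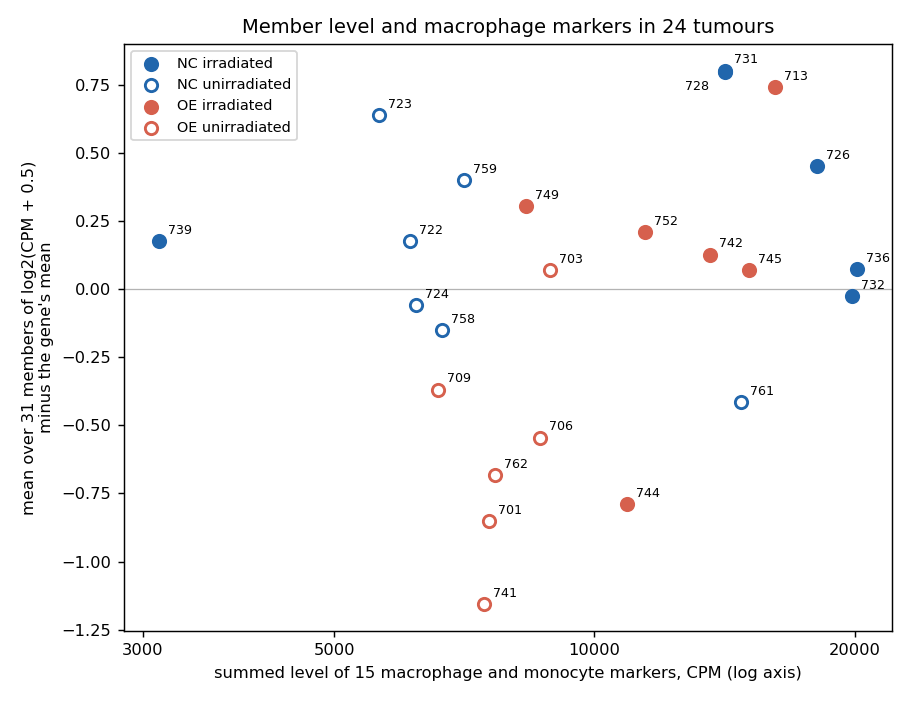
Each point is a tumour, with the summed CPM of 15 macrophage and monocyte markers on a log axis and the mean over 31 members of the gene-centred log2 level, blue for NC, red for OE, filled for irradiated. Irradiated tumours lie mostly to the right, at 8341 CPM and above except I-739 at 3132 CPM, while the member mean runs from -0.79 in EIO-744 at 10901 CPM to 0.80 in IO-728 and IO-731 at 14166 and 14173 CPM.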

How the data were processed

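RNA was extracted from whole tumours in TRIzol and libraries were made with the VAHTS Universal V5 kit, per the labels' protocols. The submitters' processing notes name fastp, HISAT2, HTSeq and the build mm10; versions, annotation and strand setting are not given in the sources used here. The deposited table holds the raw count of reads per gene and tumour, with no normalization by the authors. Columns left without a sample numbered 0. Members and lists were chosen with earlier results of these data known. Named genes were 10 fixed members of different roles, up to 4 called members with the smallest p per comparison, and other members by role; genes outside the list were named by count, with up to 4 called genes per list.

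Tests used edgeR 4.0.16 in R 4.3.3: TMM scaling, filterByExpr, quasi-likelihood F-tests on 24 tumours in 8 coded groups of 3, and Benjamini-Hochberg adjustment over 16560 genes. The SE is the absolute log2 fold change over the square root of F. Each tumour carries its own number, so no tumours are paired. Whether tumours came from separate cell cultures is not stated. Tumours of a group differed by a chi-square per gene of at least 13.6, so none was a copy of another. RPKM used GENCODE M21 exon lengths, and CPM are per 1000000 counted reads. The alternatives tried were size factors and the test of DESeq2 1.42.0, limma 3.58.1 voom with quality weights, no filter, the compared groups alone, the written labels, the 5 tumours whose labels agree, and each tumour left out. A fit without 3 tumours of unlike composition and single-stratum differences were added after the data were seen. The procedure was tested on simulated data. Reads are not independent molecules, so the floor of 3 reads covers counting error only. One gene of the listed pathway is not reported here.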

Additional observations from a re-analysis of the deposited data

Results flagged for a closer look

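Ifi35 was picked out because its radiation and olaparib differences pointed in opposite directions in different strata, with every tumour of one group on one side of every tumour of the other. Its level was 76.9 to 83.9 CPM in NC sham, 65.2 to 73.8 CPM in NC IR, 46.8 to 60.7 CPM in OE sham and 62.9 to 72.1 CPM in OE IR tumours. The radiation log2 fold change was -0.19 in NC and 0.29 in OE without olaparib, a difference of 0.4874 ± 0.23 (edgeR adjusted p = 0.265). Within NC the radiation value was 0.27 under olaparib, a difference of 0.4638 ± 0.23 from that without (adjusted p = 0.873). The same 0.4638 is the difference between the olaparib value in NC IR (0.30) and in NC sham tumours (-0.16). These tests were added after the data were seen, and none of the 31 members passed in any of the 4 such contrasts.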

How the results depend on the processing

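Counts of called members are given here, mostly without the share of all genes called in each fit. That share changed as well, so a higher count is not read as a stronger result about the members. In the averaged radiation comparison quality weights called 55.0% of all genes, and the fit without 3 tumours of unlike composition 46.7%. For radiation averaged over 4 strata the 16 became 12 without the filter on low counts, with Ifi44, Ifit2, Parp14 and Zbp1 lost, 17 with DESeq2 size factors or the DESeq2 test, 0 under the written labels, 29 with voom quality weights and 6 in the 5 tumours whose labels agree, and ranged from 11 to 23 when 1 tumour was left out. Irf7 turned to -0.0079 under the written labels (adjusted p = 0.99). The DESeq2 test gave 1 call for radiation in NC without olaparib (lower), 5 in OE without olaparib, 1 in NC under olaparib, 6 in OE under olaparib, 7 for OE versus NC averaged and 2 in sham. Quality weights gave 3, 22, 12, 23, 14 and 11 for the same comparisons, and 10 for the interaction of radiation and cell line. They called 16.5% of all genes for OE versus NC averaged and 17.4% for that interaction. The compared groups alone gave 14, 6 and 0 for radiation in OE without olaparib, NC under olaparib and OE under olaparib. No filter gave 0 for OE versus NC averaged. Written labels gave 0 for radiation in OE under olaparib, 0 for OE versus NC averaged, 1 for OE versus NC in IR and 17 for the interaction of olaparib and cell line. They called 2107 of 16560 genes for OE versus NC in IR and 14.8% of all genes for that interaction. Without 3 tumours of unlike composition the counts were 3 (all lower), 9, 3 and 12 for radiation in NC without, OE without, NC under and OE under olaparib, 7 for OE versus NC averaged, 2 for OE versus NC in IR and 11 for the interaction of radiation and cell line. With 1 tumour left out the ranges were 0 to 1, 0 to 4, 0 to 3 and 0 to 3 for those 4 radiation strata, 0 to 4 for OE versus NC averaged and 0 to 3 for the interaction of radiation and cell line, and 0 throughout for the other 11 comparisons. A group reduced to 1 or 2 tumours is assumed to vary like the others. The cause of these changes was not tested. In the 3 comparisons with any call, 7 of 20 counts under other alternatives and 46 of 72 with 1 tumour left out were within 1.5 times the main count. In the other 15 the main count was 0, so that 0 against 0 says little of stability, and 354 of 360 counts stayed at 0 with 1 tumour left out. No paired analysis was possible because each tumour carries its own number and no 2 groups share one. Depth was even, and the groups' size of 3 limits precision.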

Other observations

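NC olaparib tumour O-723 stood apart by a subset of members, a pattern noticed after its values were seen. It held 38 of the 81 Ifnb1 reads of the series, against 0 to 11 in each of the other tumours. It had the highest level of 7 members, among them Ifit1 at 331 CPM, Rsad2 at 264 CPM, Cmpk2 at 111 CPM and Trim25 at 234 CPM. Irf7 was at 216 CPM and Zbp1 at 81.9 CPM in the same tumour, both within the range of the other unirradiated tumours. OE olaparib tumour EO-703 had the most Ifng reads, 333 against 10 to 212 elsewhere, and the highest level of Parp9, at 149 CPM, with Dtx3l at 206 CPM and Herc6 at 96.9 CPM. Its summed T cell markers, at 383 CPM, were also the highest, and Rsad2 was at 35.0 CPM there. These are single tumours, and no test was made.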
